A study of Rattus norvegicus with 40 samples.

Results

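Glycogen synthesis and breakdown in rat liver was followed through 7 genes chosen by symbol, Gys2, Pygl, Ugp2, Gbe1, Pgm1, Ppp1r3b and Ppp1r3c, with every probe set that the platform annotation pairs with one of these symbols. Of the 7 symbols, 6 had a probe set, 8 probe sets in all among the 31139 on the array, and these 6 genes were among the 13438 named genes tested. Ppp1r3c had no probe set in that annotation and was not analysed here. The livers came from 40 adult male Sprague Dawley SD:CD rats in 4 groups of 10. They were dosed by oral gavage once a day over 4 days, with vehicle alone in 1 group and with 0.1, 1 and 10 mg/kg of GW7647 in the others, and livers were collected 24 h after the last gavage. GW7647 is a synthetic agonist of PPAR-alpha, the nuclear receptor that turns on fatty acid oxidation genes in liver. Feed was freely available, each liver was read on 1 Affymetrix array, and the labels describe 10 rats per dose.

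In these livers 1 glycogen gene changed far more than the rest. Ugp2, the enzyme that makes the glucose donor of glycogen, fell to 64.6% of the vehicle level at 1 mg/kg and to 33.8% at 10 mg/kg. Pgm1, the enzyme that hands Ugp2 its substrate, rose 1.37-fold at 1 mg/kg and 1.42-fold at 10 mg/kg on its brighter probe set, or 1.17-fold and 1.14-fold after quantile normalization. After quantile normalization the Pgm1 call was lost with the poly-A level as a covariate, in 4 of 40 fits at 1 mg/kg and 10 of 40 at 10 mg/kg that each left out 1 array, and on the gene's other probe set. Glycogen synthase, Gys2, and glycogen phosphorylase, Pygl, passed the test at no dose on both scales used below, and the branching enzyme Gbe1 fell slightly at 1 mg/kg. At 0.1 mg/kg no glycogen gene passed the test.

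Hepatocytes store glucose as glycogen and release it again between meals. Pgm1 converts glucose 6-phosphate to glucose 1-phosphate and back, Ugp2 joins glucose 1-phosphate to UTP to form UDP-glucose, Gys2 adds the glucose of UDP-glucose to the growing chain, and Gbe1 introduces the branches. Pygl cuts glucose 1-phosphate from the chain ends, and Ppp1r3b and Ppp1r3c bring protein phosphatase 1 to glycogen, where it activates the synthase and inactivates the phosphorylase. PPAR-alpha binds DNA with its partner RXR, preferably where AGGTCA-like hexamers stand in tandem with a single base between them, and in mice Gys2 has been described as a direct PPAR-alpha target.

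The values are log2 expression values, so that a difference of 1 is a doubling, and 5 of 5 measured PPAR-alpha target genes rose at both 1 and 10 mg/kg, among them Cyp4a1, a fatty acid omega-hydroxylase, with means of 9.50 with vehicle and 10.40, 12.44 and 12.76 at the 3 rising doses. The deposited scale was not level: array medians averaged 2.47, 2.46, 2.60 and 2.71 in the same order, and the median change of all genes against vehicle was -0.03, 0.16 and 0.26 at the 3 doses. For this reason results at 1 and 10 mg/kg were computed on the deposited values and again on quantile-normalized arrays, and levels and folds without a named scale are the deposited ones. The words rose and fell are kept for genes that passed limma's test in the same direction on both, with p adjusted by Benjamini-Hochberg over the 13438 genes and a threshold of 0.05. Poly-A control RNAs, added before labelling, averaged 5.57, 5.84, 6.22 and 6.56 in the 4 groups, and the gap between the 3′ and 5′ probe sets of beta-actin averaged 2.78, 2.85, 3.11 and 3.22, so these measures of sample preparation moved with dose as well. At 1 mg/kg these controls read lower on arrays 1 to 4 than on arrays 5 to 10. Hepatocyte markers were high throughout, with a mean level of 12.7 to 12.8 in every group over the 5 of 6 marker genes that were measured. In bulk liver, fewer cells of a type and less RNA per cell cannot be told apart.

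The 250 bases upstream of the transcript start used in RefSeq's promoter table (assembly GRCr8) were taken from it for 6 of the 7 genes, all but Ppp1r3b, and are printed 5′ to 3′ on the gene's own strand for 3 of them. Gys2 is shown because its promoter holds a stretch, in capitals, that resembles the PPAR-alpha motif. Ugp2 and Pgm1 are shown because their transcripts moved in opposite directions, and they hold no such stretch. For Ugp2 and Gbe1 the start used in that table lies inside the span that RefSeq's gene table gives the gene, so the stretch is not upstream of the whole gene.
Gys2, chr4:177137237-177137486, minus strand: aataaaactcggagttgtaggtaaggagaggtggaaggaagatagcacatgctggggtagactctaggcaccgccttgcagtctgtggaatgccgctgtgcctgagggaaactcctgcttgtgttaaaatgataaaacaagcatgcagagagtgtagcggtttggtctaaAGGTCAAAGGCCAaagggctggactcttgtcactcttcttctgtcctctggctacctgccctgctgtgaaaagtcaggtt
Ugp2, chr14:99698003-99698252, minus strand: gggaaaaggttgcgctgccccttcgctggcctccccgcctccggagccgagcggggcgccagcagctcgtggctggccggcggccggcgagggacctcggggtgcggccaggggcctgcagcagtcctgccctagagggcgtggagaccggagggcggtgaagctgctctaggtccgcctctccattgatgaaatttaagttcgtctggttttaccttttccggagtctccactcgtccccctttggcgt
Pgm1, chr5:119710484-119710733, plus strand: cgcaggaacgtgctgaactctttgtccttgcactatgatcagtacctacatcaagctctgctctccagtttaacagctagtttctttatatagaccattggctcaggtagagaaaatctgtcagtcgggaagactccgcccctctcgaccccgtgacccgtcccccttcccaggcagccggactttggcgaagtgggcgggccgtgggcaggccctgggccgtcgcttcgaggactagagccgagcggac
The Gys2 stretch AGGTCAAAGGCCA lies 80 to 68 bases before the start. It fits the loose form AGGNCANAGGNCA, searched on both strands, which 123 of all 33469 promoters of that table held (0.368%). The strict form AGGTCANAGGTCA was in 17 promoters (0.0508%) and in none of the 6 promoters here. The single hexamer AGGTCA occurred in 14.1% of all promoters and, among these 6, in Gys2 alone, where it is the start of that stretch. The loose form was written down after the Gys2 sequence had been read, so its presence there is a description. GC content was 49.6% for Gys2, 67.2% for Ugp2 and 58.0% for Pgm1, against a median of 51.2% over all promoters.

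Pgm1 catalyses the step between glucose 6-phosphate and glucose 1-phosphate. Its brighter probe set, 1388634_PM_at, ran from 8.40 to 9.17 (median 8.68) on vehicle arrays, 8.42 to 8.79 (median 8.54) at 0.1 mg/kg, 8.98 to 9.36 (median 9.14) at 1 mg/kg and 8.99 to 9.40 (median 9.18) at 10 mg/kg. On this deposited scale all 10 arrays at each of the 2 higher doses lay above the vehicle median. The highest vehicle array, replicate 1, was the only one to reach into these groups. After quantile normalization the overlap was wider. Vehicle arrays then ran from 8.53 to 9.28 (median 8.84), beside 8.86 to 9.26 at 1 mg/kg and 8.78 to 9.25 at 10 mg/kg. Against vehicle, Pgm1 rose by 0.46 at 1 mg/kg (log2, SE 0.07, adjusted p = 4.02e-06 by limma) and by 0.50 at 10 mg/kg (SE 0.07, adjusted p = 2.24e-07). After quantile normalization the changes were 0.22 (adjusted p = 0.0257) and 0.18 (adjusted p = 0.0409), so that the 10 mg/kg value was less than that at 1 mg/kg on this scale. The other Pgm1 probe set, 1369473_PM_at, differed: it was 0.34 higher at 1 mg/kg and 0.30 higher at 10 mg/kg on the deposited scale (adjusted p = 0.00634 and 0.00797), but 0.11 and -0.01 after quantile normalization (adjusted p = 0.446 and 0.953). With the poly-A level as a covariate after quantile normalization, the brighter probe set also missed the threshold (0.17 at 1 mg/kg, adjusted p = 0.152, and 0.11 at 10 mg/kg, adjusted p = 0.412). Leaving out 1 array at a time, the brighter probe set kept its call on both scales in 36 of 40 fits at 1 mg/kg and in 30 of 40 at 10 mg/kg.

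**Figure D1:**
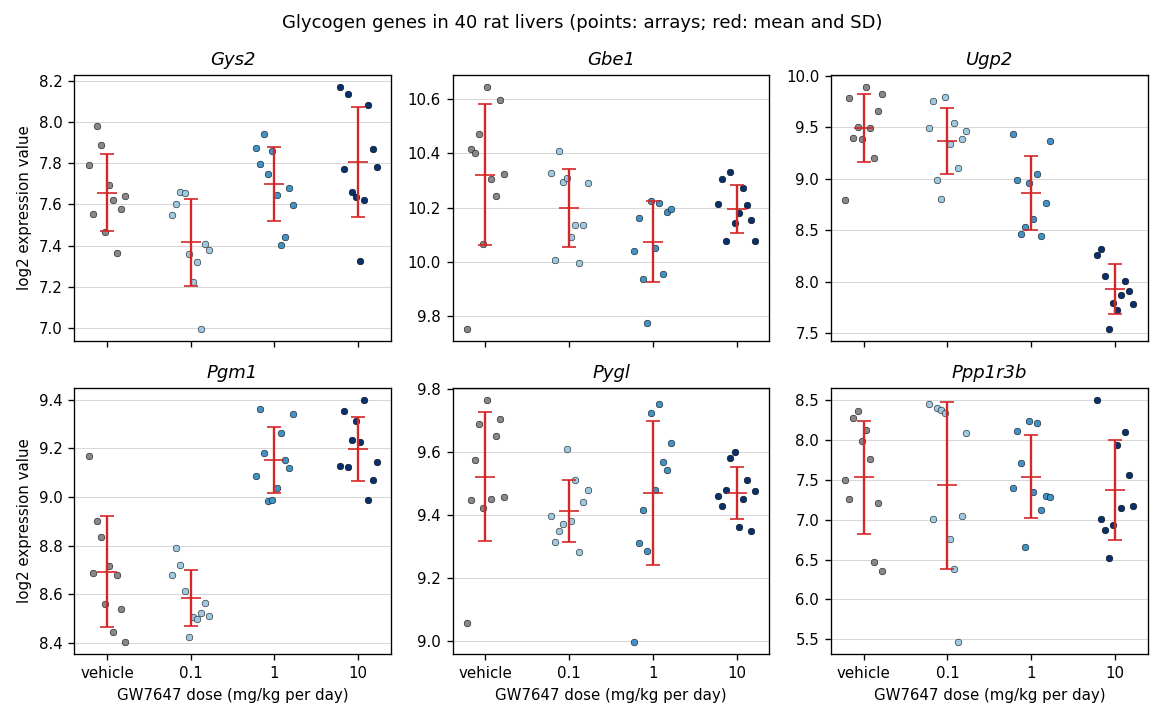
Deposited log2 expression value (vertical axis) of the 6 measured glycogen genes by GW7647 dose in mg/kg per day (horizontal axis), with 1 point per array and the mean and SD of each group of 10 in red. Ugp2 stepped down at 1 and again at 10 mg/kg, where all 10 arrays lay below every vehicle array, Pgm1 stepped up at 1 mg/kg, and Ppp1r3b was widely spread in every group.

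Ugp2, UDP-glucose pyrophosphorylase, stands at the branch from glucose 1-phosphate to UDP-glucose. Its probe set, 1388410_PM_at, read 8.79 to 9.89 (median 9.50) on vehicle arrays and 8.80 to 9.79 (median 9.43) at 0.1 mg/kg. At 1 mg/kg it read 8.44 to 9.43 (median 8.86), and at 10 mg/kg 7.54 to 8.32 (median 7.89). The vehicle and 0.1 mg/kg groups overlapped throughout, 5 of 10 arrays at 1 mg/kg were below the lowest vehicle array, and at 10 mg/kg all 10 were below every array of vehicle, 0.1 and 1 mg/kg. Ugp2 fell by 0.63 at 1 mg/kg (log2, SE 0.14, adjusted p = 0.000297 by limma) and by 1.56 at 10 mg/kg (95% interval -1.84 to -1.29, adjusted p = 1.27e-12). On the quantile-normalized scale the changes were -0.84 (adjusted p = 1.09e-05) and -1.86 (adjusted p = 1.15e-14), which left 55.8% and 27.7% of the vehicle level.

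The decline of Ugp2 went on from dose to dose. From 0.1 to 1 mg/kg it fell by 0.50 (adjusted p = 0.00259 by limma) and from 1 to 10 mg/kg by 0.93 (adjusted p = 1.98e-06), and quantile normalization gave -0.73 and -1.01 for the same steps. Only 18 of the 13438 genes had a lower change than Ugp2 at 10 mg/kg on the deposited scale. Groups without overlap on both scales, were found for 0.945% of all genes with 10 mg/kg lower than vehicle and for 0.357% with 10 mg/kg lower than 1 mg/kg. Poly-A level and markers of some other cell types also moved with dose. Markers of endothelium, stellate cells and T cells averaged 6.78, 3.98 and 2.32 at 10 mg/kg, close to 6.76, 3.92 and 2.34 with vehicle. Single genes did move at that dose: 1 of 4 endothelial genes fell, and of 5 stellate genes 1 rose and 1 fell. Muscle genes, at a low level, averaged 2.19 at 10 mg/kg and 1.76 with vehicle, and 1 of the 2 measured rose. The mean of 5 macrophage genes was 6.08 ± 0.31 at 10 mg/kg and 6.69 ± 0.23 with vehicle (log2, SD, n = 10 each), and 4 of these 5 fell. Of 4 cholangiocyte genes, with means of 3.62 ± 0.30 at 10 mg/kg and 3.23 ± 0.16 with vehicle, 2 rose at 10 mg/kg, and 1 of 5 hepatocyte genes fell. Of all genes, 20.4% rose and 7.69% fell at that dose, and these marker lists are short. With the poly-A level as a covariate after quantile normalization, the log2 change of Ugp2 was -1.73 (adjusted p = 1.41e-10 by limma). Because the poly-A level moved with dose, this fit cannot separate sample preparation from dose. The beta-actin gap was not used as a covariate. The part of other cell types in the Ugp2 result was not tested either.

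Gys2 is the liver isoform of glycogen synthase, which builds the chain. Its probe set, 1368328_PM_at, ran from 7.36 to 7.98 (median 7.63) on vehicle arrays, 6.995 to 7.66 (median 7.39) at 0.1 mg/kg, 7.40 to 7.94 (median 7.71) at 1 mg/kg and 7.33 to 8.17 (median 7.78) at 10 mg/kg. The groups overlapped at every dose, with 4 of 10 arrays at 0.1 mg/kg below the lowest vehicle array and 3 of 10 at 10 mg/kg above the highest. The change at 0.1 mg/kg was -0.24 (log2, SE 0.09), with an unadjusted p of 0.0148 and an adjusted p of 1 by limma. At 10 mg/kg it was 0.15 (95% interval -0.04 to 0.34, adjusted p = 0.169) as deposited and -0.16 (95% interval -0.34 to 0.02, adjusted p = 0.139) after quantile normalization, so that the sign turned with the scale. The step from 0.1 to 1 mg/kg passed on the deposited scale (0.28, adjusted p = 0.0134) and not after quantile normalization (0.00, adjusted p = 0.993). These intervals leave room for a change of up to 0.34 in either direction at the highest dose, which is less than the Ugp2 decline.

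Gbe1 transfers chain segments to make the branches of glycogen. Its probe set, 1389265_PM_at, ran from 9.75 to 10.64 (median 10.36) on vehicle arrays, 10.00 to 10.41 (median 10.21) at 0.1 mg/kg, 9.78 to 10.23 (median 10.11) at 1 mg/kg and 10.08 to 10.33 (median 10.19) at 10 mg/kg. The groups overlapped, and vehicle replicate 1 was the lowest of all 40 arrays, but each array at 1 and at 10 mg/kg lay below the vehicle median. Gbe1 fell by 0.25 at 1 mg/kg (log2, adjusted p = 0.0105 by limma), with -0.42 after quantile normalization (adjusted p = 0.000108). At 10 mg/kg the change was -0.13 as deposited (adjusted p = 0.156) and -0.38 after quantile normalization (adjusted p = 9.74e-05), which is no call on both scales. Without vehicle replicate 1 both scales passed there, at -0.19 (adjusted p = 0.0153) and -0.44 (adjusted p = 1.3e-06).

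Pygl is the liver glycogen phosphorylase, which starts the breakdown. Its probe set, 1368674_PM_at, ran from 9.06 to 9.77 (median 9.52) on vehicle arrays, 9.28 to 9.61 (median 9.39) at 0.1 mg/kg, 8.997 to 9.75 (median 9.51) at 1 mg/kg and 9.35 to 9.60 (median 9.47) at 10 mg/kg. The groups lay on top of each other. Changes were -0.11, -0.05 and -0.05 at the 3 doses on the deposited scale (adjusted p = 1, 0.611 and 0.562 by limma). Quantile normalization gave -0.25 at 1 mg/kg (adjusted p = 0.0174) and -0.35 at 10 mg/kg (adjusted p = 0.000311), so Pygl passed on that scale alone and is not called.

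Ppp1r3b is the glycogen-targeting subunit of protein phosphatase 1 that is abundant in liver. Its brighter probe set, 1384262_PM_at, ran from 6.36 to 8.37 (median 7.62) on vehicle arrays, 5.46 to 8.45 (median 7.57) at 0.1 mg/kg, 6.66 to 8.24 (median 7.37) at 1 mg/kg and 6.52 to 8.50 (median 7.16) at 10 mg/kg. Every group spanned more than the differences between groups, and the SD within groups, 0.75, was at the 99th percentile of 5344 genes with a mean of log2 5 or more. The other 5 glycogen genes had SDs within groups from 0.16 to 0.31. At 10 mg/kg the change was -0.15 (95% interval -0.80 to 0.49, adjusted p = 0.69 by limma) as deposited and -0.47 (95% interval -1.09 to 0.15, adjusted p = 0.214) after quantile normalization. The standard error was 0.32, beside 0.07 for Pgm1. Its other probe set, 1371161_PM_at, lay near the median of the array and was no more informative, with no call against vehicle at any dose.

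**Figure D2:**
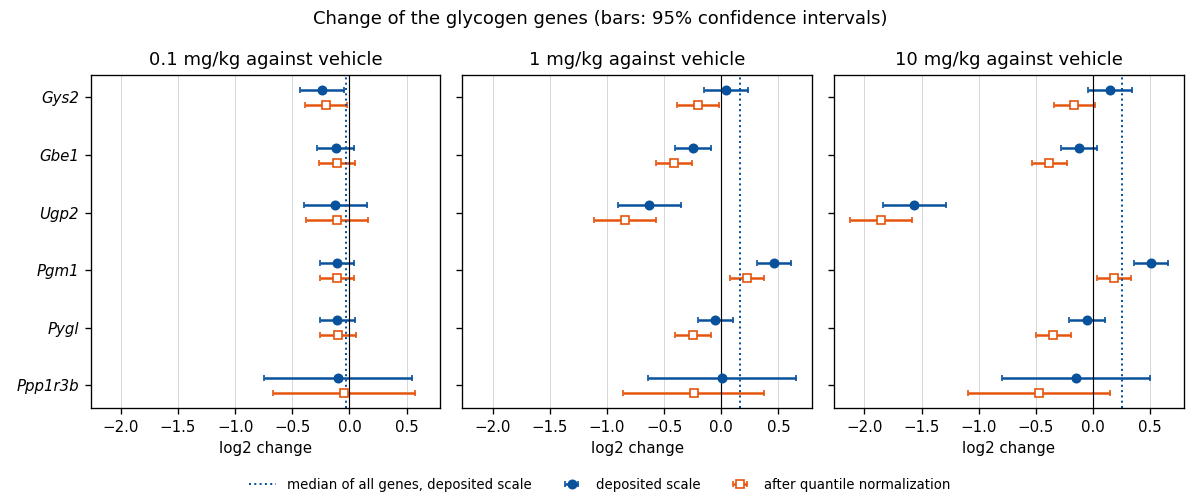
Log2 change against vehicle (horizontal axis) of the 6 measured glycogen genes at 0.1, 1 and 10 mg/kg, on the deposited scale (filled circles) and after quantile normalization (open squares), with 95% confidence intervals. The dotted line is the median change of all genes on the deposited scale, which was 0.26 at 10 mg/kg, and Ugp2 is the gene far to the left at 1 and 10 mg/kg.

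Set against all genes, the counts for the 6 measured glycogen genes were as follows. At 0.1 mg/kg 0 of 6 passed limma's test on both scales, with 1 (Gys2) at an unadjusted p under 0.05 on the deposited scale. Of all genes, 0.0893% passed on both scales and 4.37% had an unadjusted p under 0.05. At 1 mg/kg 1 rose (Pgm1) and 2 fell (Ugp2 and Gbe1), against 11.1% of all genes that rose and 3.37% that fell. At 10 mg/kg 1 rose (Pgm1) and 1 fell (Ugp2), against 20.4% and 7.69% of all genes. From 0.1 to 1 mg/kg Pgm1 rose and Ugp2 fell, against 10.5% of all genes that rose and 2.95% that fell, and from 1 to 10 mg/kg only Ugp2 passed, falling as 5.98% of all genes did while 8.55% rose. Over the 3 doses together, limma's F test was passed on both scales by 3 of 6 (Ugp2, Pgm1 and Gbe1), beside 34.2% of all genes. The median change of the 6 was -0.12, -0.02 and -0.09 at 0.1, 1 and 10 mg/kg as deposited, beside -0.03, 0.16 and 0.26 for all genes. After quantile normalization it was -0.11, -0.24 and -0.36, beside 0.00, -0.01 and -0.02. A count of 2 in 6 at 10 mg/kg is near the 28.1% of all genes that passed in either direction, so the count by itself does not set these genes apart.

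Differences between genes read on the same array do not depend on a shift of the whole array. Ugp2 minus Pgm1, a pair added after the values were seen, compares the enzyme that uses glucose 1-phosphate for UDP-glucose with the one that supplies it. The difference ran from -0.37 to 1.42 (median 0.94) on vehicle arrays, 0.19 to 1.36 (median 0.83) at 0.1 mg/kg, -0.71 to 0.34 (median -0.37) at 1 mg/kg and -1.69 to -0.86 (median -1.25) at 10 mg/kg. All 10 arrays at 10 mg/kg lay below every vehicle array. Relative to vehicle the difference changed by -0.02 at 0.1 mg/kg, -1.09 at 1 mg/kg (SE 0.19) and -2.07 at 10 mg/kg (SE 0.18). After quantile normalization the values at 1 and 10 mg/kg were -1.06 and -2.04. Because the pair was picked for its opposite directions, these values are descriptions. The permutation test described below was run on this pair too and enters the adjustment there, but its p-values are not used.

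Gys2 minus Pygl sets synthase against phosphorylase. The difference ran from -2.29 to -1.27 (median -1.86) on vehicle arrays, -2.29 to -1.69 (median -2.07) at 0.1 mg/kg, -2.35 to -1.12 (median -1.85) at 1 mg/kg and -2.04 to -1.29 (median -1.68) at 10 mg/kg. The groups overlapped at every dose. The change against vehicle was -0.13, 0.09 and 0.20 at the 3 doses, with standard errors of 0.12, 0.15 and 0.12, and none passed a two-sided permutation test with 100000 resamples, adjusted over 6 comparisons of both pairs (adjusted p = 0.408, 0.641 and 0.25). After quantile normalization it was -0.10, 0.04 and 0.18.

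**Figure D3:**
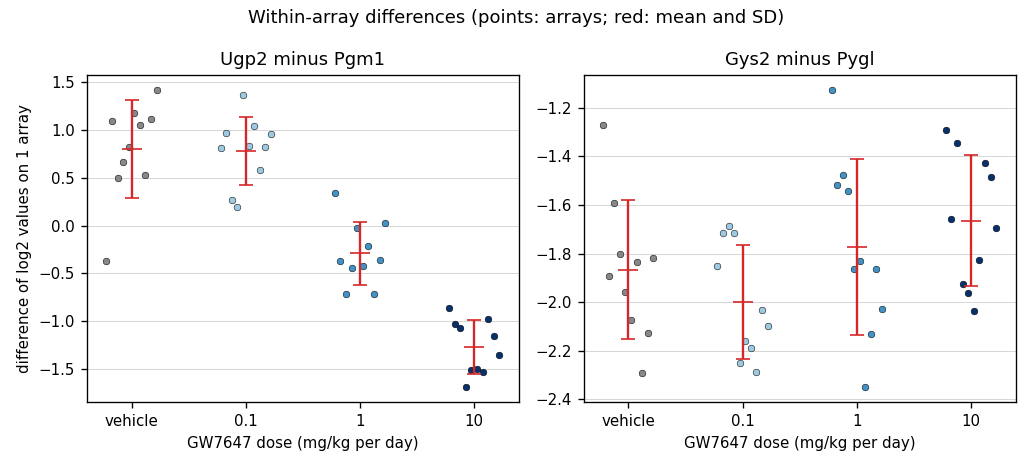
Difference of 2 log2 expression values on the same array (vertical axis) for Ugp2 minus Pgm1 and Gys2 minus Pygl by GW7647 dose in mg/kg per day (horizontal axis), with 1 point per array and the mean and SD of each group of 10 in red. The Ugp2 minus Pgm1 difference at 10 mg/kg, from -1.69 to -0.86, lay below all vehicle arrays, while the Gys2 minus Pygl groups overlapped.

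The other genes of glycogen handling were taken as a list of 29, of which 22 were measured. None passed at 0.1 mg/kg, 3 rose and 0 fell at 1 mg/kg, and 8 rose and 2 fell at 10 mg/kg on both scales. Of all genes, 11.1% rose and 3.37% fell at 1 mg/kg, and 20.4% rose and 7.69% fell at 10 mg/kg. The median change of the list at 10 mg/kg was 0.26, the same as that of all genes. Gaa, the acid alpha-glucosidase that digests glycogen in lysosomes, rose 2.01-fold at 10 mg/kg, with means of 7.47 ± 0.32 at 10 mg/kg and 6.46 ± 0.21 with vehicle (log2, SD, n = 10 each, adjusted p = 4.26e-10 by limma). That is a log2 change of 1.01, or 0.69 after quantile normalization. Phkb, a regulatory subunit of phosphorylase kinase, had lower means, 4.49 with vehicle and 5.43 at 10 mg/kg. It rose by 0.94 as deposited and 0.66 after quantile normalization. Gyg1, the primer protein on which a glycogen chain starts, rose by 0.74 and 0.43 on these scales. Ppp1ca and Ppp1cb are catalytic subunits of protein phosphatase 1. Ppp1ca rose by 0.73 as deposited and 0.43 after quantile normalization, and Ppp1cb by 0.68 and 0.37. Ppp1cc, another catalytic subunit and named after its values were seen, did not rise. It changed by -0.02 as deposited (adjusted p = 0.842) and -0.30 after quantile normalization (adjusted p = 0.00143). Ppp1r3d, a dim glycogen-targeting subunit of that phosphatase also named afterwards, fell by 0.28 as deposited, with -0.53 after quantile normalization. Ppp1r2, an inhibitor of that phosphatase that is named here after its values were seen, fell by 0.38 as deposited (adjusted p = 0.0117) and had a change of -0.71 after quantile normalization.

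Several listed genes were dim or without a call. Gys1, the muscle isoform of the synthase, rose 1.56-fold at 10 mg/kg, but with means of 2.87 at 10 mg/kg and 2.23 with vehicle it was close to the median of all probe sets, and its log2 change was 0.64 as deposited and 0.40 after quantile normalization. Phka2, the liver alpha subunit of phosphorylase kinase, rose by 0.51 as deposited and 0.29 after quantile normalization, at a similarly low level. Gsk3b and Gsk3a are kinases that inhibit the synthase. Gsk3b changed by 0.26 (adjusted p = 0.154), while the dim Gsk3a, named after its values were seen, rose by 0.50 as deposited (adjusted p = 1.69e-05) and 0.26 after quantile normalization (adjusted p = 0.0232). Phkg2, the liver catalytic subunit of phosphorylase kinase, changed by 0.29 as deposited (adjusted p = 0.00135) and -0.03 after quantile normalization (adjusted p = 0.775).

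**Figure D4:**
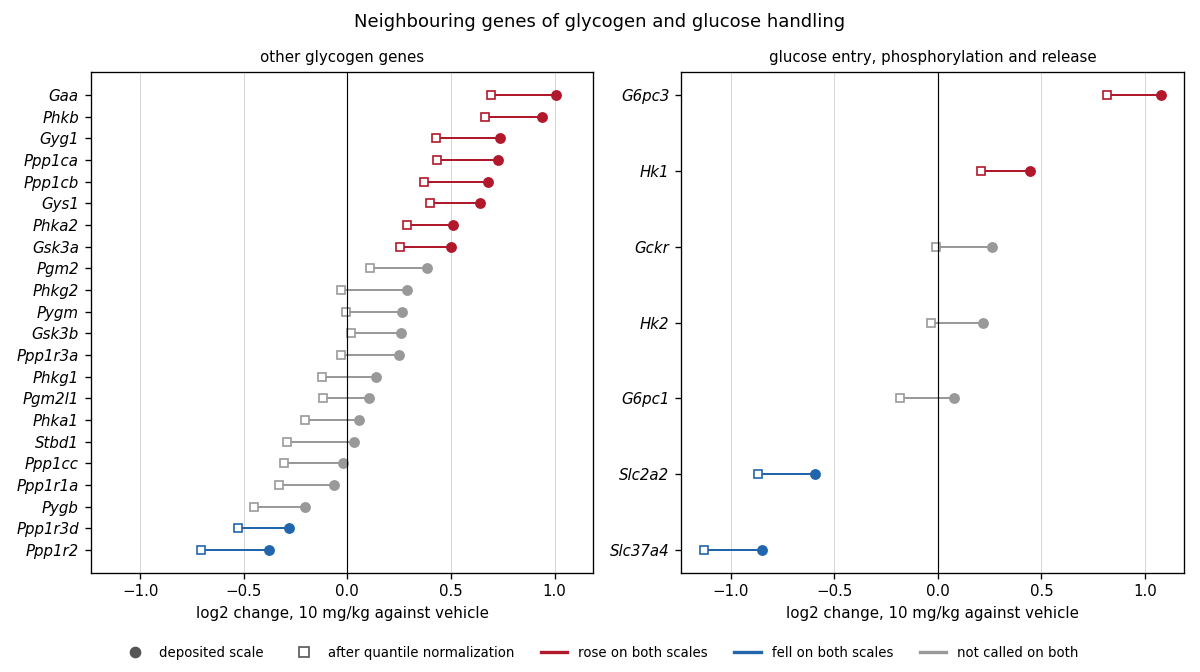
Log2 change at 10 mg/kg against vehicle (horizontal axis) of the 22 other measured glycogen genes and of 7 genes of glucose entry, phosphorylation and release, on the deposited scale (filled circles) and after quantile normalization (open squares). Red marks genes that rose on both scales, blue those that fell on both and grey the rest, so that 8 of the 22 other glycogen genes are red and 2 blue, and 2 of the 7 glucose genes are red and 2 blue.

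Among genes of glucose entry, phosphorylation and release, 7 of 9 were measured, and 2 rose and 2 fell at 1 mg/kg and again at 10 mg/kg, beside the 11.1% and 3.37% of all genes that did so at 1 mg/kg and the 20.4% and 7.69% at 10 mg/kg. Slc37a4, the transporter that carries glucose 6-phosphate into the endoplasmic reticulum for release as glucose, was at 9.07 ± 0.26 at 10 mg/kg and 9.92 ± 0.16 with vehicle (log2, SD, n = 10 each). It fell by 0.85 as deposited (adjusted p = 4.69e-11 by limma), with -1.13 after quantile normalization. Slc2a2, the main glucose transporter of the hepatocyte membrane, fell by 0.59 at 10 mg/kg as deposited (log2, adjusted p = 4.11e-06), with -0.87 after quantile normalization. G6pc1, the catalytic subunit of liver glucose 6-phosphatase, changed by 0.08 (adjusted p = 0.812). Its widely expressed relative G6pc3 was dim, with means of 3.82 with vehicle and 4.90 at 10 mg/kg. G6pc3 rose by 1.08 as deposited and 0.82 after quantile normalization. Hk1, a hexokinase, rose by 0.45 and 0.21 on these scales at a dim level.

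Genes that carry hormone and energy signals to glycogen numbered 23, with 20 measured. At 1 mg/kg 2 rose and 1 fell, and at 10 mg/kg 1 rose and 2 fell, where 20.4% of all genes rose and 7.69% fell (11.1% and 3.37% at 1 mg/kg). Gnas, the stimulatory G protein subunit downstream of the glucagon receptor, rose by 0.43 at 10 mg/kg as deposited (log2, adjusted p = 1.55e-09 by limma) and by 0.17 after quantile normalization (adjusted p = 0.00832). Pik3r1, a regulatory subunit of phosphoinositide 3-kinase in insulin signalling, fell by 0.74 as deposited (adjusted p = 0.000857), with -0.99 after quantile normalization. Its level was low, with means of 4.27 with vehicle and 3.53 at 10 mg/kg. Adra1b, an alpha-1 adrenergic receptor, fell by 0.36 as deposited (adjusted p = 0.00366), with -0.68 after quantile normalization. The median change of this list at 10 mg/kg was 0.10, beside 0.26 for all genes. Of 8 other users of UDP-glucose and glucose 1-phosphate 6 were measured, and 0 passed on both scales at any dose. Among them Ugdh, named after its values were seen, which oxidises UDP-glucose to UDP-glucuronic acid, changed by -0.21 as deposited (adjusted p = 0.0639) and -0.52 after quantile normalization (adjusted p = 4.46e-05).

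Within groups, rats of the same dose also differed from each other, and the pairs of glycogen genes were compared over all 40 arrays after quantile normalization with group means removed. Of 15 pairs, 1 passed by both Pearson's r and Spearman's rho. Pygl and Gbe1, breakdown and branching, varied together (r = 0.65, rho = 0.549, adjusted permutation p = 0.00015 and 0.00885 over 15 pairs), and r was 0.60 without the 2 arrays farthest from the Pygl median. Computed within each group of 10 in order of dose, r was 0.89, 0.42, 0.58 and 0.34. Gys2 and Ppp1r3b, synthase and the subunit that brings its activating phosphatase, gave r = 0.36 (adjusted permutation p = 0.105) and rho = 0.44 (adjusted permutation p = 0.0452). The other 13 pairs passed by neither measure.

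Among 5343 other genes with a mean of log2 5 or more, those whose values within groups were most like a glycogen gene's are given by Pearson's r over 40 arrays, as a description. For Ppp1r3b, the gene with the widest spread, they were Mid1ip1 (r = 0.72), a regulator of acetyl-CoA carboxylase, Angptl8 (r = 0.72), a secreted regulator of lipoprotein lipase, and Lnx2 (r = 0.70). For Ugp2 they were Fam210a (r = 0.71), Cyp39a1 (r = 0.71), an oxysterol hydroxylase of bile acid synthesis, and Hibch (r = 0.70), an enzyme of valine breakdown. For Gys2 they were Pmvk (r = 0.67), phosphomevalonate kinase, Pradc1 (r = 0.61) and Nat8 (r = 0.59). For Pgm1 they were Gpld1 (r = 0.70), Babam1 (r = 0.69) and Cbs (r = 0.69), cystathionine beta-synthase. Pygl and Gbe1 shared Cul4a, a ubiquitin ligase scaffold, as the most similar gene (r = 0.77 and 0.80), followed by Erp44 (r = 0.68) and Casd1 (r = 0.67) for Pygl and by Cmpk1 (r = 0.72) and Zfp180 (r = 0.70) for Gbe1. All of these share the arrays' depth of signal and preparation, and all 3 genes named for Pygl had a negative r within at least 1 group (lowest -0.30 for Cul4a, -0.34 for Erp44 and -0.31 for Casd1).

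**Figure D5:**
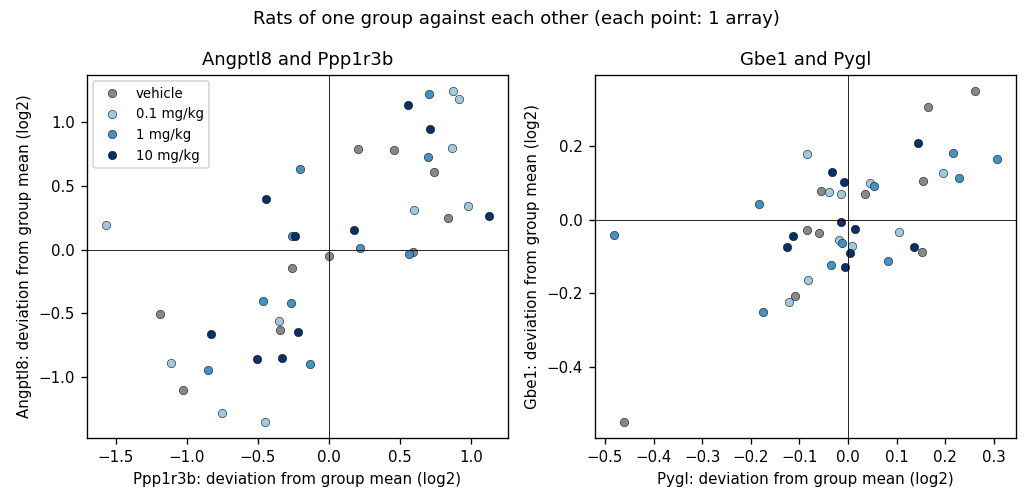
Deviation of each array from its group mean after quantile normalization (log2, both axes), for Angptl8 against Ppp1r3b and for Gbe1 against Pygl, with 1 point per array coloured by dose. For Gbe1 and Pygl the r within groups was 0.89 with vehicle but 0.34 at 10 mg/kg, and 1 vehicle array is low for both.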

How the data were processed

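Each of 40 rat livers was read on 1 array, and the labels gave its group and dose. The unit of the deposited table is log2 signal per probe set. The submitters' processing notes name GCRMA and Partek without versions, and a genome build is not given in the sources used here. The values were used as deposited. Arrays have no read depth, so precision rests on their number. Of 31139 probe sets, 19069 had 1 symbol, 572 had several and 11498 were unnamed here, and 18989 were updated through Entrez numbers in a RefSeq table of GRCr8. The brightest probe set per gene over all arrays left 13438 genes.

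All comparisons were contrasts in 1 four-group limma 3.58.1 fit (lmFit and eBayes, 36 residual degrees of freedom, R 4.3.3), two-sided, with Benjamini-Hochberg adjustment over all genes and a threshold of 0.05. Quantile normalization of the 40 arrays was the second scale. Permutation tests ran in Python 3.11.15 with scipy 1.17.1, and figures in matplotlib 3.10.9. The fit was tested on simulated data. The members and gene lists were chosen with earlier results of these data known. Named beyond the members were up to 6 genes per list with the largest change at 10 mg/kg among those called on both scales, 10 genes whatever their values, and the 3 genes most like each member. A planned pair, Ppp1r3b minus Ppp1r3c, could not be run and Ugp2 minus Pgm1 took its place.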

Additional observations from a re-analysis of the deposited data

Results flagged for a closer look

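Pygl on the lowest vehicle array, replicate 1, read 9.058, far from the nearest other vehicle array at 9.422 and the highest at 9.766, a gap of 0.514 of the range of the group. Chance flags about 1 in 20 groups, and 32 groups were examined. The same array was the lowest of its group for Ugp2 and Gbe1 and the highest for Pgm1. Without it the changes at 10 mg/kg were -1.64 for Ugp2, -0.19 for Gbe1 and 0.56 for Pgm1 on the deposited scale.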

How the results depend on the processing

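Ugp2 passed at 1 and 10 mg/kg and in both steps between doses under each alternative run, with changes at 10 mg/kg from -1.93 to -1.56. It also passed on both scales with each of the 40 arrays left out in turn (as deposited, -1.64 to -1.52 at 10 mg/kg). Gbe1 at 1 mg/kg passed under each alternative and in all 40 such fits. Pgm1 at 10 mg/kg was called on both scales in 30 of 40 such fits and at 1 mg/kg in 36. The call was lost at 10 mg/kg without vehicle replicate 5, 7, 8, 9 or 10 or 10 mg/kg replicate 2, 4, 5, 6 or 7, and at 1 mg/kg without vehicle replicate 7 or 10 or 1 mg/kg replicate 2 or 10; adjusted p after quantile normalization then reached 0.097 and 0.0608. With the 1 mg/kg group cut to its arrays 1 to 4 it was 0.105 at 1 mg/kg.

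The number of glycogen genes past the threshold at 10 mg/kg, 2 as deposited, was 4 under quantile normalization (also with the replicate block, with the 1 mg/kg group cut to its arrays 1 to 4, without vehicle replicate 1 or of every probe set), with arrays shifted to a common median and with arrays scaled to the hybridisation controls. At 1 mg/kg it was 3 as deposited, 4 after quantile normalization, also without vehicle replicate 1 or of every probe set, 4 as deposited with arrays 1 to 4, and 5 after quantile normalization with the replicate block, where Gys2 (-0.21, adjusted p = 0.032) was added to Pygl. At 0.1 mg/kg it was 0 under each alternative. Leaving out 1 array gave 3 throughout at 1 mg/kg and 2 to 3 at 10 mg/kg as deposited, and 2 to 3 and 1 to 3 on both scales. Over all genes, 8626 (7593 higher) passed at 10 mg/kg as deposited and 6022 (2748 higher) after quantile normalization, and 3781 to 9187 over all alternatives. At 1 mg/kg it was 5592 (5139 higher) and 3106 (1485 higher), and 1737 to 6296.

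Signs turned for the values below, of which the Gys2 step had passed as deposited and Gys2 at 1 mg/kg passed with the block. Gys2 at 1 mg/kg gave -0.21 under quantile normalization, -0.21 with every probe set or the block in it, -0.19 without vehicle replicate 1, -0.045 with only arrays 1 to 4, -0.080 with the poly-A covariate or a common median, and -0.13 by hybridisation controls. At 10 mg/kg Gys2 gave -0.16 under quantile normalization and the fits with it other than the poly-A one (0.027), -0.15 without vehicle replicate 1, -0.090 with a common median and -0.085 by hybridisation controls. The Gys2 step from 0.1 to 1 mg/kg gave -0.0012 in each quantile-normalized fit named here except the poly-A and arrays 1 to 4 ones. Ppp1r3b at 0.1 mg/kg gave 0.15 with array weights, 0.021 with the poly-A covariate and 0.20 without the 2 arrays with the lowest upper quartile. Ppp1r3b at 1 mg/kg gave -0.24 under quantile normalization, -0.29 with only arrays 1 to 4 as well, -0.060 with these arrays as deposited, -0.077 with the poly-A covariate, -0.11 with a common median, -0.16 by hybridisation controls, -0.18 as a mean of probe sets and -0.0061 with array weights. Ugp2 minus Pgm1 at 0.1 mg/kg gave 0.0023 under quantile normalization. The cause was not tested.

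The fits on both scales at once, with each array left out, with the replicate block after quantile normalization, without vehicle replicate 1 and of every probe set after it were chosen after seeing the data. Pairing by replicate was not tested. Deviations of same-numbered arrays correlated from -0.27 to 0.37 (median 0.04, others -0.006). Of 40 arrays, 10 correlated best with their own number. As deposited, the replicate block left the counts at 3 and 2. Dim probe sets, such as the other one of Ppp1r3b, say little.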
